A study of Mus musculus with 36 samples.

Results

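Butyrate changed the transcriptomes of primary mouse hepatocytes and primary mouse myotubes in ways that differed for many genes, and the comparison described here was the difference of the responses, (hepatocytes butyrate - control) - (myotubes butyrate - control), on the log2 scale. It compared 12 of the 36 RNA-seq libraries of the series, 3 for each of hepatocytes control, hepatocytes butyrate, myotubes control and myotubes butyrate, and was tested for 15340 genes in a fit of all 36 libraries, which share the scaling, the filter and the estimate of the spread. The members of interest were the genes whose response differed between these cells, 7423 of the 15340 (48.4%) at a false discovery rate (FDR) below 0.05. Control cells received PBS, and treated cells received 5 mM butyrate, for 6 h. The myotubes came from hindlimb muscle of male C57BL/6 mice, from myoblasts that were preplated on an uncoated surface to deplete fibroblasts and were fused in horse serum. The hepatocytes came from livers of male C57BL/6NHsd mice by collagenase perfusion and rested overnight on collagen before the exposure, so the preparation and the time in culture differed between the cell types. Libraries of adipocytes and bone marrow-derived macrophages with the same treatments, and libraries of all these cells with β-hydroxybutyrate (βOHB), belonged to the series and, beside their part in that fit, were used only where stated. Nothing in the labels tied the replicates to separate animals or cultures, so the P-values measured the spread between these libraries, which may be technical.

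Butyrate is a short-chain fatty acid made by gut bacteria that ferment fiber. Cells take it up through monocarboxylate transporters and can burn it by mitochondrial β-oxidation, and in the nucleus it inhibits histone deacetylases, the enzymes that remove acetyl groups from histones. The liver meets butyrate in portal blood and makes ketone bodies from acetyl-CoA, whereas muscle fibers, formed by fusion of myoblasts under MYOD and myogenin, oxidize ketone bodies made elsewhere. Levels are given as TMM-normalized CPM (read counts scaled to the library size), which compare a gene between libraries but not with another gene.

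The libraries held 18366289 to 22896158 estimated counts each, and all expressed the markers of their label. The 11 matched hepatocyte markers (such as albumin) summed to 59870 to 65360 CPM in the control and butyrate-treated hepatocytes, and the 12 skeletal muscle markers summed to 33790 to 40660 CPM in control myotubes and 23670 to 31860 CPM in butyrate-treated myotubes. The myotube butyrate libraries also held hepatocyte transcripts. Their hepatocyte markers summed to 50.9, 892 and 214 CPM in replicates 1, 2 and 3, compared with 0.528 to 1.63 CPM in the control myotubes. Over 163 genes that were particular to hepatocytes among the 4 cell types, the median level was 0.124, 1.72 and 0.503% of that of butyrate-treated hepatocytes, compared with 0.000936 to 0.00383% in control myotubes. For this reason 539 transcripts with at least 10 CPM in hepatocyte controls and a level (plus 1 CPM) at least 16 times that of myotube controls were set aside. The transcripts nearest to that limit were Trim30d and Gm9973 inside it, at 16.03 and 16.06 times, and Stxbp2 and Akr1c14 outside it, both at 15.98 times. Of the 539, 437 were raised and 14 lowered in the myotube butyrate libraries in the fit. When each library's carried share was first subtracted, 189 were raised and 50 lowered. Over all tested genes, 33.1% were raised and 33.4% lowered in myotubes. Replicate 3 of the butyrate-treated myotubes stood apart from the others (chi-square per degree of freedom 36.9 and 41.7 to replicates 1 and 2, compared with 8.57 between those). Named results that rested on it are marked where they are given.

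**Figure D1:**
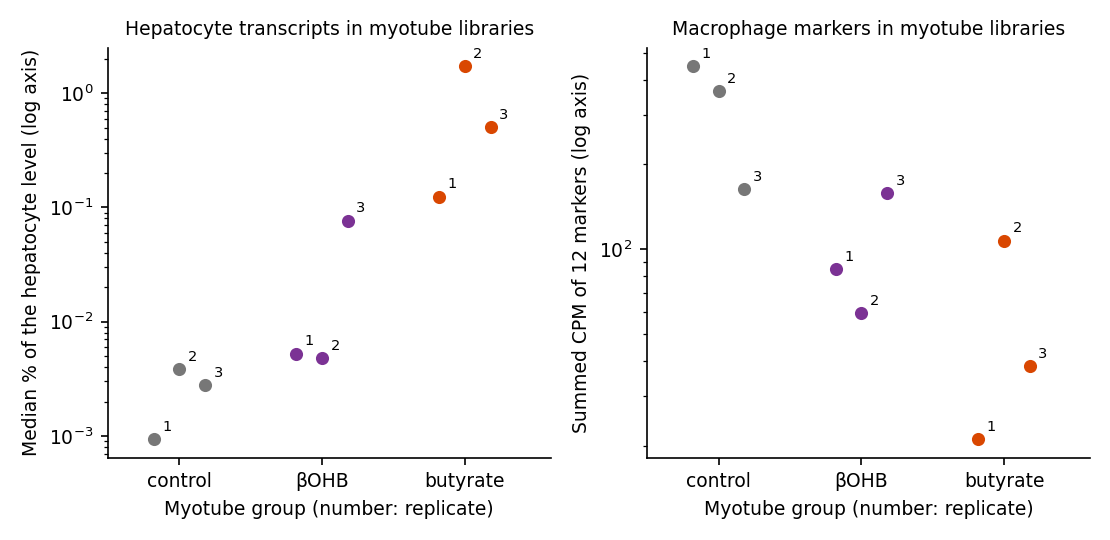
Transcripts of other cell types in the myotube libraries. The left panel plots, for each library of control, βOHB and butyrate-treated myotubes, the median percentage of the hepatocyte level over 163 hepatocyte genes on a log axis. The right panel plots the summed CPM of the macrophage and Kupffer cell markers. All 3 butyrate libraries lie above all 3 control libraries on the left and below them on the right.

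Markers of other cells moved with butyrate as well. The macrophage markers summed to 446, 365 and 164 CPM in control myotubes and to 21.1, 107 and 38.3 CPM in butyrate-treated myotubes, and all 10 that were tested fell. In hepatocytes the endothelial markers summed to 101 to 113 CPM in controls and to 35.2 to 40.7 CPM with butyrate, and 9 of 10 fell. In bulk RNA, fewer cells of a type and less RNA per cell cannot be told apart, and the part of either shift in the results was not tested.

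After the set-aside, 14801 genes remained and 6964 of them differed. The difference was above 0 for 3459 genes (23.4% of the 14801) and below 0 for 3505 (23.7%), whereas with the transcripts set aside included it was above 0 for 22.6% and below 0 for 25.8% of the 15340 genes tested. A fit of the 12 compared libraries alone gave 6171 genes that differed and 886 with opposite directions. Butyrate raised 31% and lowered 32.4% of all tested genes in hepatocytes, and raised 33.1% and lowered 33.4% in myotubes. Of the 6964 genes, 2643 moved in the same direction in both cells, of which 1956 moved more in hepatocytes and 687 more in myotubes. The 1075 genes with opposite directions (7.26% of the 14801), in which both responses and their difference passed the test, divided into 543 raised in hepatocytes and lowered in myotubes and 532 with the reverse pattern. This near-even split depended on the set-aside and on the scaling. With hepatocyte transcripts kept the counts were 543 and 707, and with transcripts set aside at 4 times the myotube level they were 542 and 392. With library totals in place of TMM the median myotube response shifted by 0.131 on the log2 scale, and the counts became 382 and 678.

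**Figure D2:**
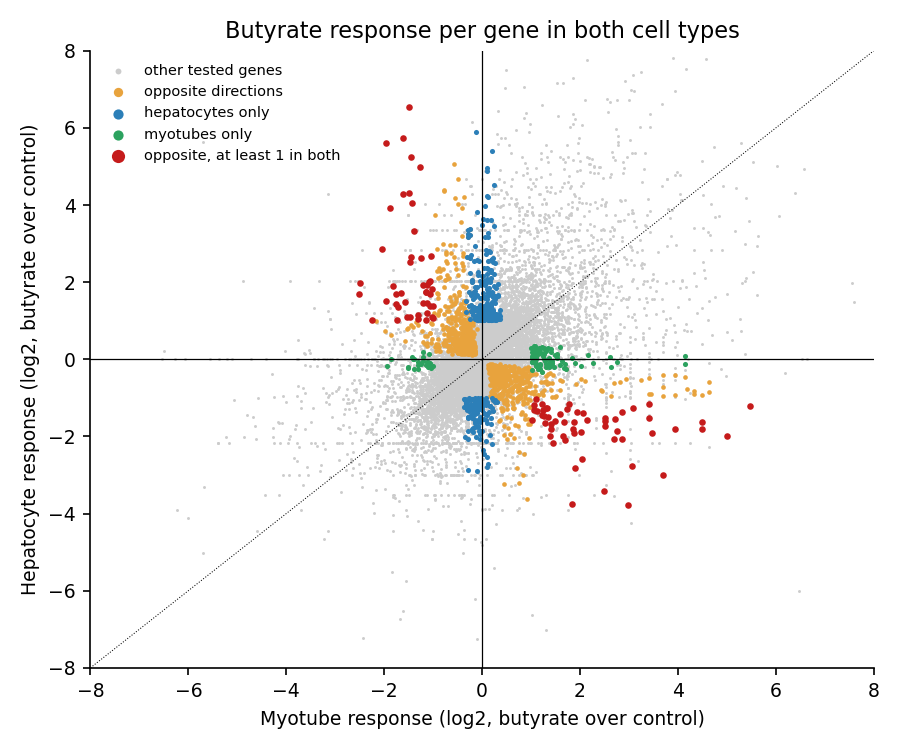
Log2 response of each tested gene in myotubes (x axis) and hepatocytes (y axis), with genes of opposite direction and one-sided genes in colour. The axes end at 8 in both directions and 6 genes lie outside them. Genes of opposite direction occupy the upper left and lower right quadrants, and one-sided genes lie along the axes.

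Larger opposite changes were rare. With a change of at least 1 on the log2 scale in both cells, 46 genes rose in hepatocytes and fell in myotubes and 55 fell in hepatocytes and rose in myotubes. Of these 101 genes (0.682% of the 14801), 66 kept opposite directions in the test under all 22 other settings of the processing. Library totals gave 35 and 69 genes. Means were below 1 CPM in both control and butyrate-treated hepatocytes for 19 of the 46 genes. In myotubes this held for 32 of the 55 genes. Of the 46 genes, 11 were transcripts of myotubes (at least 16 times the hepatocyte level in controls) and 9 were macrophage transcripts by the same kind of rule. Among all 14801 genes, 739 were transcripts of myotubes and 278 were macrophage transcripts. Only 7 of the 101 reached a mean of 10 CPM, in controls or with butyrate, in both cell types. For Synpo2 and Car3 in hepatocytes and for Sema6b in myotubes, only the butyrate mean reached it. The libraries of these 7 genes did not overlap within a cell type, and the genes are described one by one.

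Synpo2, which encodes an actin-bundling protein of the muscle Z-disc, showed the largest of these differences. Its level was 0.376, 0.184 and 0.0591 CPM in the 3 hepatocyte controls and 9.32, 10.2 and 10.9 CPM with butyrate. In myotubes it was 417, 485 and 509 CPM in controls and 127, 128 and 109 CPM with butyrate. The libraries did not overlap in either cell type, and the responses were 5.60 ± 0.25 (SE) in hepatocytes and -1.96 ± 0.08 in myotubes on the log2 scale, with a difference of 7.55 ± 0.24 (FDR = 2.12e-20). Leaving out hepatocyte control replicate 1, the highest of the 3, moved the difference to 8.28. Lmo7 encodes a LIM domain protein of cell junctions that also binds emerin. It measured 34.9, 42.9 and 44.0 CPM in hepatocyte controls and 132, 134 and 140 CPM with butyrate, and 412, 420 and 450 CPM in myotube controls and 218, 206 and 158 CPM with butyrate. Again no library overlapped, with responses of 1.73 ± 0.11 and -1.14 ± 0.10 and a difference of 2.87 ± 0.15 (FDR = 1.25e-15). Car3 encodes carbonic anhydrase 3, a cytosolic enzyme of muscle, liver and fat. It rose from 8.27 ± 1.06 to 165 ± 15.1 CPM (SD, n = 3) in hepatocytes and fell from 338 ± 69.9 to 120 ± 48.0 CPM in myotubes, a difference of 5.80 ± 0.40 (FDR = 8.63e-13). The libraries did not overlap within a cell type, and with butyrate the Car3 levels of the cell types were closer than in the controls.

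In the reverse direction, C77080 fell in hepatocytes and rose in myotubes. Its level was 222, 255 and 257 CPM in hepatocyte controls and 93.6, 86.4 and 90.5 CPM with butyrate, and 23.5, 20.3 and 20.6 CPM in myotube controls and 48.8, 49.1 and 53.5 CPM with butyrate. The responses were -1.44 ± 0.07 and 1.23 ± 0.08, with no overlap of libraries in either cell type and a difference of -2.67 ± 0.11 (FDR = 5.57e-18). Sema6b encodes a transmembrane semaphorin, a class of guidance cue for growing axons. It measured 26.2, 28.6 and 26.1 CPM in hepatocyte controls and 11.6, 10.3 and 8.77 CPM with butyrate, and 7.06, 6.12 and 7.43 CPM in myotube controls and 29.3, 27.2 and 29.7 CPM with butyrate. The order of the cell types was therefore reversed by butyrate, and the difference was -3.46 ± 0.15 (FDR = 4.09e-17). Gprc5a, a retinoic acid-induced orphan receptor, and Tinagl1, a secreted matrix protein, had the same directions under all 22 settings, but the size of their change depended on replicate 3 of the butyrate-treated myotubes. Gprc5a measured 17.9, 15.4 and 14.6 CPM in control myotubes and 29.5, 28.0 and 58.0 CPM with butyrate, and its difference of -2.73 ± 0.24 became -2.31 without that replicate. Tinagl1 measured 79.4, 70.8 and 56.9 CPM in control myotubes and 99.1, 84.9 and 265 CPM with butyrate, and its difference of -2.45 ± 0.34 became -1.75 without that replicate, while its myotube response went from 1.11 to 0.41.

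**Figure D3:**
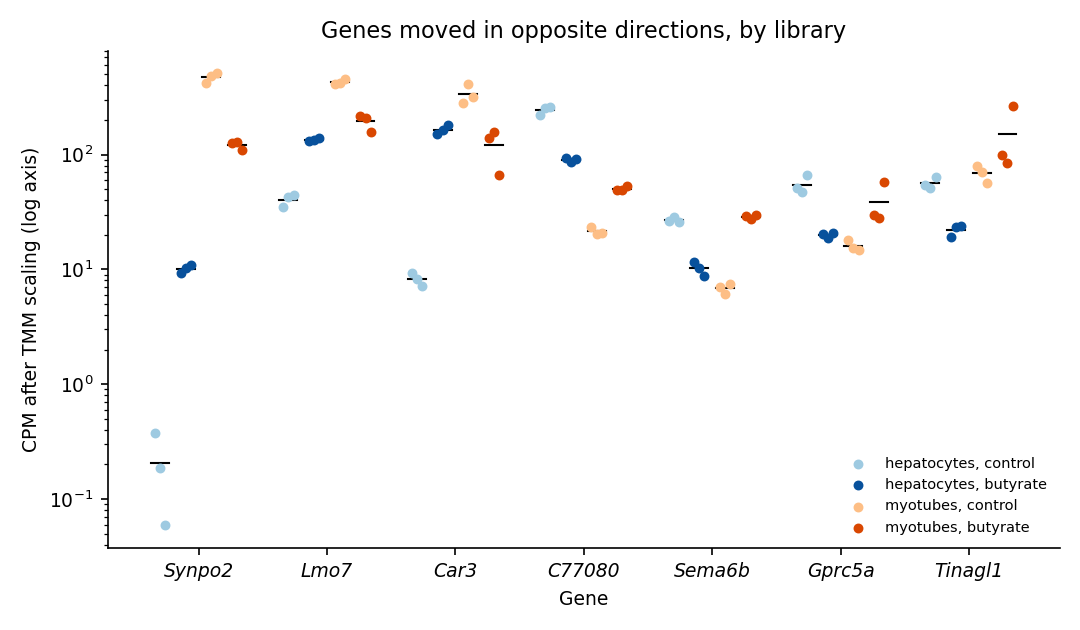
CPM of the 7 genes above in each of the 12 libraries on a log axis, with 4 colours for hepatocytes control, hepatocytes butyrate, myotubes control and myotubes butyrate. Points are libraries and bars are group means. Within each gene the butyrate libraries move up from the controls in one cell type and down in the other.

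The promoters of 5 genes with opposite directions are shown as examples of the sequence around the starts of genes with either pattern. Each runs from 250 bases before to 50 bases after the start in the RefSeq annotation of GRCm38.p6, 5′ to 3′ on the strand of the gene. Capitals mark the TATA box TATAAA, the CCAAT box, the GC box GGGCGG, the E-box CACGTG and the E-box CAGCTG, on either strand.
Synpo2, chr3:123236100-123236399 (reverse strand): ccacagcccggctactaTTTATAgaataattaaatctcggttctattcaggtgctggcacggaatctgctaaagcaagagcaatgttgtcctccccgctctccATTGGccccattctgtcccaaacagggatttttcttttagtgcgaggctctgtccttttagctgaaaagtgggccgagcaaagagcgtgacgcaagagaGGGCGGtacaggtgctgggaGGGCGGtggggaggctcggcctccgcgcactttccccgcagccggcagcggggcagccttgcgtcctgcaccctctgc
Lmo7, chr14:101729678-101729977 (forward strand): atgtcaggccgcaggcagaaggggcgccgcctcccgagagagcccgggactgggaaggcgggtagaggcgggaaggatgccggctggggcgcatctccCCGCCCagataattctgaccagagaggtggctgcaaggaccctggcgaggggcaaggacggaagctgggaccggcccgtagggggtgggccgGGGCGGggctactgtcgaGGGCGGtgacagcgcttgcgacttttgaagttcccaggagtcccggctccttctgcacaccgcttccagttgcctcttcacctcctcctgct
C77080, chr4:129261355-129261654 (reverse strand): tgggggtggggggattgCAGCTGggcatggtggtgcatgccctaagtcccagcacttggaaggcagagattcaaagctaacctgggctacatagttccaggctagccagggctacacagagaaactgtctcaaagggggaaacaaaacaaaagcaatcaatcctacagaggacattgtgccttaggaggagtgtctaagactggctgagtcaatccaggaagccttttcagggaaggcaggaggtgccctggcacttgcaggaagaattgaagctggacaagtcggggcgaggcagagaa
Sema6b, chr17:56140294-56140593 (reverse strand): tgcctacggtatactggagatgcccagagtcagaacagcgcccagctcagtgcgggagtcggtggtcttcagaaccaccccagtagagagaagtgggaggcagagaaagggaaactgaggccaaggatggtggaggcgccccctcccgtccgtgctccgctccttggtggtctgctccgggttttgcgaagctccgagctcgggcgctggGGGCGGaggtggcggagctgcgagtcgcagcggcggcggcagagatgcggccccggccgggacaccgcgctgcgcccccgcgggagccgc
Bdh1, chr16:31422047-31422346 (forward strand): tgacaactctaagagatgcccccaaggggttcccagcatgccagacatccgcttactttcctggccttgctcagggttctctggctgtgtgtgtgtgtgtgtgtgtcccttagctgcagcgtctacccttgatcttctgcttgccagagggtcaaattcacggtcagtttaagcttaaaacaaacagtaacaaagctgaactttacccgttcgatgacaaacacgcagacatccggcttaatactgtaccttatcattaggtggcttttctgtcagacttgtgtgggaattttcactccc
Synpo2, raised in hepatocytes, held a reversed TATA box, a CCAAT on the reverse strand and GC boxes, and Lmo7 held GC boxes alone. C77080 held 1 E-box and 2 CpG dinucleotides, and Sema6b held 1 GC box and 29 CpG dinucleotides. Bdh1, the ketone body gene described below, held none of the letters searched. Among the 11084 promoters matched by symbol, 7.57% held TATAAA, 38.6% held CCAAT, 63.3% held GGGCGG, 9.97% held CACGTG and 15.3% held CAGCTG, and the median number of CpG dinucleotides was 20. Of the 46 genes with large opposite changes that rose in hepatocytes, 34 matched, and 61.8% of these held CCAAT, but among the 421 matched promoters of all 543 genes with these directions the share was 37.1%. Of the 55 that fell in hepatocytes, 36 matched, 44.4% held GGGCGG, 0 held CACGTG, and the median number of CpG dinucleotides was 10.5. Among the 410 matched promoters of all 532 genes with these directions, 70% held GGGCGG and 8.29% held CACGTG, and the median was 20, so the values of the smaller group did not extend to the whole class. The 182 matched promoters of genes that rose in hepatocytes alone held a median of 24 CpG dinucleotides, and 15.4% held CACGTG. These shares are a description, and a match of letters is not a binding site.

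A response in one cell type alone was called only where the gene changed by at least 1 on the log2 scale in that cell and the 95% interval of its response in the other lay within 0.5 of 0. By this definition 229 genes rose and 138 fell in hepatocytes alone, and 88 rose and 24 fell in myotubes alone. The counts for myotubes depended on the processing. The 88 became 161 with hepatocyte transcripts kept and 45 with transcripts set aside at 4 times the myotube level, and the 24 became 42 without the filter on low counts. The definition bounds the other response but does not require it to miss the test, and 31 of the 479 one-sided genes also passed as opposite while 112 passed with the same direction in both cells. The median response of the 229 genes was 1.38 in hepatocytes and 0.09 in myotubes, and that of the 88 genes was 0.03 and 1.22.

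Genes that rose in hepatocytes alone included St6galnac4 and Atp8b2. St6galnac4, a sialyltransferase, measured 2.20, 2.71 and 2.42 CPM in hepatocyte controls and 24.4, 21.9 and 22.7 CPM with butyrate, whereas myotubes measured 70.4, 74.8 and 71.2 CPM and 64.7, 60.0 and 58.4 CPM. Its myotube interval was -0.37 to -0.11 and the difference was 3.47 ± 0.12 (FDR = 2.09e-19). The fall in myotubes, though small, passed the test by itself (FDR = 0.00127), and the libraries did not overlap. Atp8b2, which encodes a phospholipid flippase, rose from 2.73 ± 0.257 to 28.2 ± 0.546 CPM in hepatocytes, with an interval of -0.42 to -0.08 in myotubes and a difference of 3.62 ± 0.15. Mfap3l rose by 3.25 ± 0.16 in hepatocytes, with a myotube interval of -0.46 to -0.11. The small decreases of Atp8b2 and Mfap3l in myotubes also passed the test, so these genes, like St6galnac4, are among the opposite ones too, although all 3 lost that call with library totals, and Atp8b2 also without myotube butyrate replicate 1 or 2 or myotube control replicate 1. Rasa3, a GTPase-activating protein for RAS and RAP, measured 7.84, 7.50 and 7.45 CPM in hepatocyte controls and 25.6, 25.7 and 26.0 CPM with butyrate. Its myotube level was 60.3 ± 2.87 CPM in controls and 65.6 ± 3.21 CPM with butyrate, and the difference was 1.64 ± 0.08.

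Ikbkg fell most clearly in hepatocytes alone. It encodes NEMO, the regulatory subunit of the kinase complex that activates NF-κB. The level was 213, 241 and 209 CPM in hepatocyte controls and 30.2, 30.2 and 30.4 CPM with butyrate, and 49.5, 47.1 and 49.6 CPM in myotube controls and 39.5, 41.4 and 38.4 CPM with butyrate. The fall in hepatocytes was -2.87 ± 0.06 and that in myotubes -0.29 ± 0.06, with a difference of -2.57 ± 0.08 (FDR = 2.12e-20), and butyrate thus brought hepatocytes to a level below that of control myotubes. Mgea5, the enzyme that removes O-linked N-acetylglucosamine from proteins, fell from 221 ± 13.8 to 75.0 ± 2.76 CPM in hepatocytes, with a myotube interval of -0.29 to -0.05. Slc39a1, a zinc importer, fell from 339 ± 12.1 to 142 ± 1.69 CPM in hepatocytes, with a myotube interval of -0.27 to -0.07. Plp2 changed by -2.02 ± 0.09 in hepatocytes and by -0.35 ± 0.07 in myotubes.

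In myotubes alone, Dynll2, a light chain of dynein, rose from 130, 124 and 126 CPM to 301, 282 and 311 CPM, compared with 154 ± 1.46 CPM in control and 122 ± 0.914 CPM in butyrate-treated hepatocytes. The difference was -1.56 ± 0.07 (FDR = 1.51e-16), and the slight decrease in hepatocytes was also outside the spread of the libraries (-0.33 ± 0.05). Fgd6, an exchange factor for CDC42, measured 7.38, 6.91 and 7.79 CPM in control myotubes and 21.3, 24.5 and 22.7 CPM with butyrate, with a hepatocyte interval of -0.21 to 0.10 and overlapping hepatocyte libraries. Nedd9, a scaffold protein of focal adhesions, rose by 1.31 ± 0.07 in myotubes, and Galnt10, which starts mucin-type O-glycosylation, rose by 1.35 ± 0.05. Their responses in hepatocytes were -0.19 ± 0.07 and 0.28 ± 0.06, and Dynll2 and Nedd9 also passed as opposite, Dynll2 under all 22 settings. Nedd9 lost that call under 6 of them, which were hepatocyte butyrate replicate 2 or hepatocyte control replicate 2 or 3 left out, no filter on low counts, the 12 libraries alone and library totals. Among the 24 genes that fell in myotubes alone, Ppfibp2, a liprin of cell adhesions, fell from 38.1, 38.4 and 44.8 CPM to 10.2, 11.1 and 12.3 CPM while hepatocytes had 82.0 ± 9.75 CPM in controls and 82.9 ± 4.01 CPM with butyrate. Baiap2l1, a membrane-bending actin regulator, changed by -1.42 ± 0.08 in myotubes, with a hepatocyte interval of -0.15 to 0.18. Dapk2, a calmodulin-regulated kinase, changed by -1.52 ± 0.08, with a hepatocyte interval of -0.36 to -0.04. Slc6a6, the taurine transporter, fell from 609 ± 11.2 to 284 ± 26.2 CPM in myotubes, with a hepatocyte interval of -0.22 to 0.10.

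Adipocytes and macrophages were in the fit but not in the contrast, and gave a further view of these genes. Over all tested genes, butyrate raised 30.7% and lowered 30.3% in adipocytes and raised 31.9% and lowered 33.2% in macrophages. Genes raised in hepatocytes alone were raised in 65.9% of cases in adipocytes and 63.8% in macrophages, and genes raised in myotubes alone in 73.9% and 64.8%. Genes lowered in hepatocytes alone were lowered in 61.6% and 64.5%, and those lowered in myotubes alone in 54.2% and 62.5%, the last over 24 genes. The genes with opposite directions had shares nearer to those of all genes, but they had no limit on the size of the change. Of the 543 raised in hepatocytes, 31.7% were raised and 28.4% lowered in adipocytes, and 33.7% and 31.9% in macrophages. Of the 532 raised in myotubes, 41% were raised and 21.2% lowered in adipocytes, and 40.6% and 25.2% in macrophages. Of the 46 genes with large opposite changes that rose in hepatocytes, 28.3% were raised and 19.6% lowered in adipocytes, and 26.1% and 39.1% in macrophages. For the 55 with the reverse pattern these shares were 29.1% and 29.1%, and 41.8% and 14.5%. The 7 genes described above were mixed. Synpo2 rose in adipocytes (1.74 ± 0.10) and macrophages (1.29 ± 0.12), as in hepatocytes, while Lmo7 rose in macrophages (2.25 ± 0.24) and had a response of 0.08 ± 0.19 in adipocytes. C77080 rose in adipocytes (0.96 ± 0.10) and fell in macrophages (-0.79 ± 0.07), and Gprc5a and Tinagl1 rose in both, as in myotubes.

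**Figure D4:**
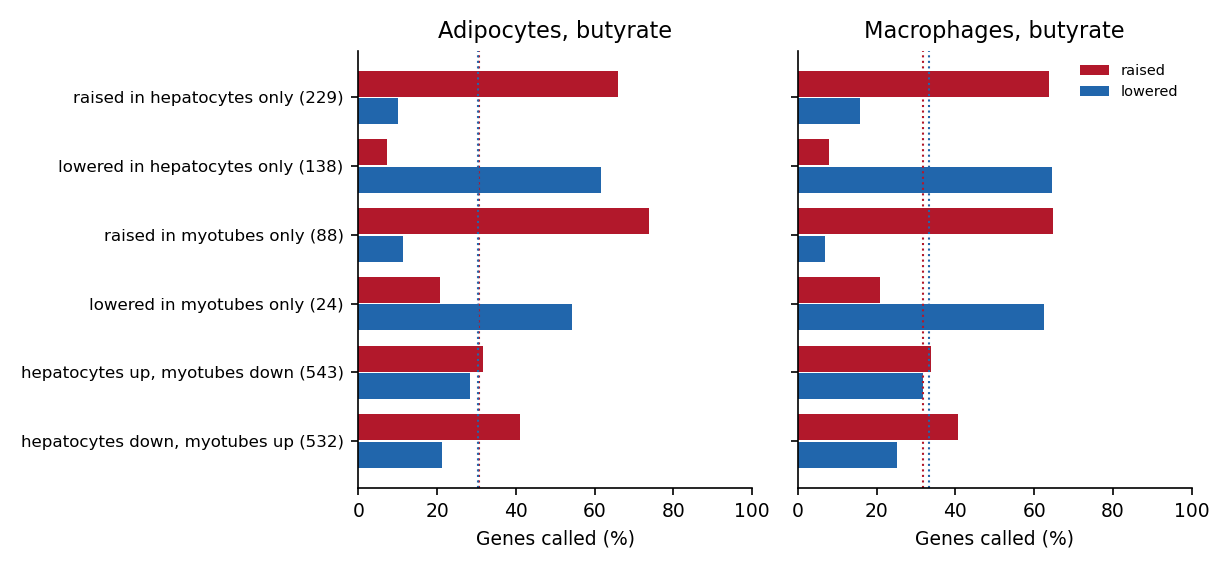
Percentage of the genes of each class that butyrate raised or lowered in adipocytes and macrophages. Dotted lines give the percentage over all tested genes. Bars of the one-sided classes stand above the dotted line in the direction of their class. Those of the classes with opposite directions, which had no limit on the size of the change, lie closer to it.

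The level of a gene in the other cell type also differed between the classes. In the βOHB-treated libraries, which entered none of the responses, 45.7% of all genes were higher in hepatocytes than in myotubes, and the median log2 ratio of the levels was -0.097. Of the genes raised in hepatocytes alone, 8.73% were higher in hepatocytes and the median ratio was -2.04. Of the genes raised in myotubes alone, 81.8% were higher in hepatocytes and the median ratio was 2.07. These classes were not drawn evenly from all levels. A narrow interval in the other cell type needs many counts there, and a large rise is more easily reached from a low level, so the definition may itself favor genes at a higher level in the other cell type, and nothing further is read from these shares. In the opposite directions, 21.5% of the 543 genes raised in hepatocytes and 76.1% of the 532 genes raised in myotubes were at a higher level in hepatocytes. For genes lowered in hepatocytes alone the share was 50%, and for those lowered in myotubes alone it was 45.8%. The hepatocyte transcripts set aside, which were chosen by level, are not in these counts.

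The gene lists that follow are counted over members not set aside, and their counts are to be read against the 23.4% of all 14801 genes with a difference above 0, the 23.7% with one below 0 and the 7.26% with opposite directions. Counts of members that rose or fell within a cell type stand beside 31.7% of these genes raised and 31.9% lowered in hepatocytes, and 31.4% raised and 34.5% lowered in myotubes. Genes of butyrate uptake and breakdown responded in both cells. Of 18 counted members, 11 rose in hepatocytes and 14 in myotubes, and the difference was above 0 for 7 and below 0 for 4. Bdh1, the mitochondrial dehydrogenase that interconverts acetoacetate and βOHB, was the single member with opposite directions. It measured 29.4, 25.0 and 25.7 CPM in hepatocyte controls and 17.9, 17.9 and 19.8 CPM with butyrate, and 1.79, 1.63 and 1.45 CPM in myotube controls and 15.8, 15.2 and 15.4 CPM with butyrate. No libraries overlapped within a cell type, and the difference was -3.78 ± 0.17 (FDR = 2.39e-17). Butyrate left myotubes with Bdh1 levels close to, but below, those of butyrate-treated hepatocytes, and after subtraction of the carried hepatocyte share the difference was -3.78 as well. Bdh1 also rose in adipocytes (2.66 ± 0.16) and macrophages (1.67 ± 0.11). Slc16a1, the transporter MCT1, rose more in myotubes (1.11 ± 0.12) than in hepatocytes (0.52 ± 0.12). In contrast Hadha and Hadhb, the subunits of the mitochondrial trifunctional protein, rose more in hepatocytes, Hadha from 285 ± 10.6 to 513 ± 21.1 CPM (0.85 ± 0.07 compared with 0.20 ± 0.07 in myotubes) and Hadhb from 124 ± 10.8 to 271 ± 6.25 CPM (1.13 ± 0.07 compared with 0.43 ± 0.07).

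In the mitochondrial lists more members had a difference above 0 than below. Among 25 regulators of oxidative phosphorylation and enzymes of the TCA cycle, 14 had a difference above 0 and 2 below, with a median of 0.27 compared with 0.015 over all genes, and 14 (56%) rose in hepatocytes, while the 10 that fell in myotubes (40%) were near the share of all genes. Idh2, mitochondrial isocitrate dehydrogenase, rose from 48.1 ± 3.57 to 128 ± 5.91 CPM in hepatocytes and differed by 1.23 ± 0.12. Fh1, fumarase, rose by 0.81 ± 0.06 in hepatocytes with a myotube interval of -0.22 to 0.03. Ppargc1a, a coactivator of mitochondrial biogenesis, rose in both cells, by 2.91 ± 0.16 in hepatocytes and 1.50 ± 0.12 in myotubes. Its relative Ppargc1b instead moved in opposite directions, from 2.82, 3.08 and 3.19 CPM to 5.88, 6.34 and 7.09 CPM in hepatocytes and from 19.2, 21.0 and 23.0 CPM to 11.3, 10.8 and 9.17 CPM in myotubes (difference 2.09 ± 0.20, FDR = 5.72e-10). Of 22 genes of fatty acid oxidation, 9 had a difference above 0 and 1 below, and Eci2, an enoyl-CoA isomerase, rose by 0.60 ± 0.06 in hepatocytes with a myotube interval of -0.26 to -0.01.

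Among 20 glycolytic genes, the difference was above 0 for 6 and below 0 for 3, and without hepatocyte control replicate 2 or myotube butyrate replicate 2 the latter count was 1. Pfkm, the muscle isoform of phosphofructokinase, rose from 11.0 ± 1.47 to 25.6 ± 1.11 CPM in hepatocytes and fell from 512 ± 27.8 to 409 ± 61.1 CPM in myotubes. Its difference was 1.54 ± 0.13 (FDR = 7.83e-11) and the opposite directions were kept under all 22 settings. Hk1, a hexokinase, rose by 1.83 ± 0.13 and 0.46 ± 0.10. Ldhb rose from 0.563 ± 0.384 to 3.45 ± 0.428 CPM in hepatocytes, and its difference of 2.38 ± 0.35 became 3.11 without hepatocyte control replicate 3. Of 14 genes of gluconeogenesis and glycogen, 3 had a difference above 0 and 4 below (2 below without myotube control replicate 3). Slc2a4, the insulin-responsive glucose transporter GLUT4, was at 0 in all hepatocyte controls and at 2.70, 2.03 and 1.62 CPM with butyrate, whereas myotubes went from 32.3, 42.2 and 39.2 CPM to 26.2, 27.9 and 17.8 CPM. Foxo1, a transcription factor of the fasting response, rose by 0.92 ± 0.07 in hepatocytes with a myotube interval of -0.01 to 0.28.

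In the cholesterol list more members had a difference below 0 than above. Of 23 members, the difference was below 0 for 12 and above 0 for 3, the median was -0.38, and 11 fell in hepatocytes while 11 rose in myotubes. Pmvk and Mvd, enzymes of the mevalonate pathway, moved in opposite directions. Pmvk measured 44.8, 40.2 and 41.4 CPM in hepatocyte controls and 27.2, 24.7 and 25.6 CPM with butyrate, and 9.04, 8.24 and 7.96 CPM in myotube controls and 11.5, 10.4 and 10.5 CPM with butyrate (difference -1.07 ± 0.13, FDR = 5.36e-08). Mvd, named after its values were seen, changed by -0.37 ± 0.09 and 0.52 ± 0.08. Hsd17b7 rose by 1.08 ± 0.09 in myotubes with a hepatocyte interval of -0.28 to 0.07. Against the majority, Insig1, which holds back the activation of SREBP, rose from 257 ± 9.45 to 688 ± 20.7 CPM in hepatocytes and by 0.43 ± 0.09 in myotubes.

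Few liver-specific lists could be compared, since most of their members were among the transcripts set aside. Of 21 hepatocyte transcription factors 11 were set aside, and in hepatocytes 6 of the 21 rose and 11 fell. Hnf4a, a master regulator of the hepatocyte, went from 651, 625 and 659 CPM to 315, 306 and 304 CPM in hepatocytes. In myotubes it was at 0 in all controls and at 0.692, 6.03 and 2.55 CPM with butyrate, in the same order of replicates as the carried hepatocyte share. Hnf4a was set aside by its control levels and is therefore not counted, and the cause of its myotube signal was not tested. Of the 10 factors counted, the difference was above 0 for 2 and below 0 for 4. Rxra, a partner of nuclear receptors, changed by -0.83 ± 0.07 in hepatocytes and -0.32 ± 0.08 in myotubes. Onecut1, a factor of liver development, rose in hepatocytes from 13.3 ± 4.31 to 21.6 ± 0.860 CPM and went from 0.0746 ± 0.0676 to 1.23 ± 0.168 CPM in myotubes, and its difference of -3.24 ± 0.59 was -3.05 after subtraction of the carried share and -3.90 without myotube control replicate 3. Cebpb fell by a small amount in hepatocytes and rose in myotubes (-0.30 ± 0.10 and 0.63 ± 0.12), but the opposite directions were lost with library totals and without hepatocyte control replicate 1 or 2. Of 7 genes each of bile acid handling and of the urea cycle and amino acid breakdown, 0 and 1 had a difference above 0, and 3 and 2 below. Abcc4, an efflux pump, had a difference of -1.19 ± 0.25 that became -0.72 without myotube butyrate replicate 3. Abcb11, the bile salt export pump, changed by -0.55 ± 0.17 and 1.63 ± 0.60, but all myotube libraries were below 1 CPM. Its rise in myotubes did not pass the test after subtraction of the carried share (1.24, FDR = 0.0867) or without myotube butyrate replicate 2 (1.47, FDR = 0.0606). Its opposite call was also lost without myotube control replicate 2, and its difference was -2.77 without myotube control replicate 3. Cyp39a1, an oxysterol hydroxylase, rose by 0.38 ± 0.10 and 0.98 ± 0.14, a difference of -0.59 ± 0.17 that was -0.48 after the subtraction. Asl, a urea cycle enzyme, had a hepatocyte interval of -0.11 to 0.15 and rose by 0.53 ± 0.07 in myotubes. Hal, which breaks down histidine, fell in myotubes from 1.61 ± 0.268 to 0.365 ± 0.140 CPM with a hepatocyte interval of -0.61 to 0.01, and its difference of 1.83 ± 0.39 was 2.90 after the subtraction. The difference for Ass1 (-0.61 ± 0.20) did not pass the test without myotube butyrate replicate 3 (-0.27, FDR = 0.127). Of the 20 acute phase proteins, 19 were set aside, and the 1 counted did not pass.

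Many muscle genes fell in myotubes. Of 23 myogenic transcription factors 14 fell in myotubes and 5 in hepatocytes, and the difference was above 0 for 5 and below 0 for 3. Myod1, a master regulator of myogenesis, fell from 381, 432 and 408 CPM to 63.6, 69.6 and 67.7 CPM in myotubes and was at most 0.123 CPM in hepatocytes. Some factors of this list were gained at low levels in hepatocytes. Six4, a homeodomain protein, measured 0.0627, 0.0615 and 0.177 CPM in hepatocyte controls and 5.19, 3.82 and 4.68 CPM with butyrate, with a 95% interval of the myotube response of 0.01 to 0.38. Hey1, a target of Notch, measured 0.0627, 0.123 and 0.0591 CPM in hepatocyte controls and 6.46, 5.25 and 5.82 CPM with butyrate, and rose by 2.05 ± 0.18 in myotubes.

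Of 43 genes of the sarcomere, 28 fell and 0 rose in myotubes, but the difference was above 0 for 2 and below 0 for 5. The latter count was 2 or 3 when hepatocyte butyrate replicate 1 or 2, hepatocyte control replicate 1, myotube butyrate replicate 1 or 2, or myotube control replicate 1 was left out. Actn3, the α-actinin of fast fibers, fell from 772 ± 34.0 to 559 ± 31.4 CPM in myotubes, and measured 0.439, 0.0615 and 0.650 CPM in control and 1.11, 1.14 and 1.74 CPM in butyrate-treated hepatocytes, so that its difference of 2.21 ± 0.41 became 2.84 without hepatocyte control replicate 3. Acta1, skeletal muscle α-actin, rose from 18.1 ± 1.06 to 41.7 ± 2.70 CPM in hepatocytes and changed by -0.49 ± 0.16 in myotubes, opposite directions that were lost without myotube butyrate replicate 3 and with library totals. Tpm3, a tropomyosin, fell in both, by -0.85 ± 0.06 and -0.56 ± 0.06. At the neuromuscular junction 12 of 15 genes fell in myotubes, 4 had a difference above 0 and 2 below. The 4 that passed as opposite were Lrp4, Agrn, Dok7 and Utrn, the last 2 named after their values were seen, and these 2 did not hold under all settings. Dok7 was lost under 3 of 22, without hepatocyte butyrate replicate 2 or 3 or hepatocyte control replicate 2. Utrn was lost under 10, among them DESeq2, RLE size factors, library totals and the 12 libraries alone. The others included hepatocyte butyrate replicate 2 or 3 or myotube butyrate replicate 3 left out. Lrp4, the muscle receptor for agrin, measured 9.16, 10.6 and 9.76 CPM in hepatocyte controls and 33.2, 30.5 and 27.4 CPM with butyrate, and 130, 140 and 145 CPM in myotube controls and 96.1, 100 and 66.6 CPM with butyrate (difference 2.28 ± 0.18, FDR = 1.27e-11). Its ligand gene Agrn changed the other way, by -0.32 ± 0.10 in hepatocytes and 0.52 ± 0.10 in myotubes, although the opposite directions were lost without hepatocyte control replicate 3. Erbb3, a receptor for neuregulins, fell in both, more in myotubes (-1.84 ± 0.09) than in hepatocytes (-1.08 ± 0.09).

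Genes of chromatin, the direct setting of histone deacetylase inhibition, fell into lists near and away from these background shares. Of 23 histone deacetylases and corepressors, 5 had a difference above 0 and 5 below (21.7% each), close to the shares over all genes, and 0 moved in opposite directions. Mta3 and Mta2, subunits of the NuRD corepressor, fell more in hepatocytes, Mta3 by -1.91 ± 0.07 compared with -0.65 ± 0.07 and Mta2 by -0.90 ± 0.04 compared with -0.38 ± 0.04. Hdac3, a histone deacetylase itself, rose by 0.67 ± 0.05 and 0.18 ± 0.05. Of 17 histone acetyltransferases and bromodomain readers, 13 fell in hepatocytes and 12 in myotubes, and the difference was below 0 for 9 and above 0 for 2 (1 with library totals or RLE size factors, and without hepatocyte butyrate replicate 1 or 2, myotube butyrate replicate 3 or myotube control replicate 3). Kat2b, the acetyltransferase PCAF, fell in hepatocytes (-1.24 ± 0.08) and by a smaller amount in myotubes (-0.31 ± 0.08). Kat5, the acetyltransferase TIP60, changed by -1.56 ± 0.09 and -0.69 ± 0.09, and Ncoa2, a coactivator of nuclear receptors, by -0.81 ± 0.08 and 0.00 ± 0.08. Of 14 linker histones and histone variants, the difference was above 0 for 6 and below 0 for 2. H1f0, the linker histone of resting cells, rose in both, from 118, 121 and 105 CPM to 603, 629 and 583 CPM in hepatocytes and from 104, 111 and 115 CPM to 466, 436 and 420 CPM in myotubes, with a difference of 0.40 ± 0.09 (FDR = 0.00026). H3f3a, a gene of the variant histone H3.3, rose by 0.46 ± 0.06 in hepatocytes with a myotube interval of -0.18 to 0.05, and H1fx, another linker histone, rose by 3.29 ± 0.27 and 1.55 ± 0.15.

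Many cell cycle genes responded more positively in hepatocytes. Of 32 cyclins and genes of DNA replication and mitosis, 17 had a difference above 0 and 6 below (3 below without hepatocyte control replicate 3), the median was 0.97, and 12 rose in hepatocytes while 18 fell in myotubes. Ccnd3, cyclin D3, measured 48.4, 46.9 and 52.3 CPM in hepatocyte controls and 124, 121 and 124 CPM with butyrate, and 448, 509 and 490 CPM in myotube controls and 381, 354 and 327 CPM with butyrate. No libraries overlapped within a cell type, and the difference was 1.76 ± 0.09 (FDR = 2.5e-16). E2f2, a transcription factor of S-phase entry, rose from 2.68 ± 0.561 to 24.1 ± 0.649 CPM in hepatocytes, with a myotube interval of -0.10 to 0.35. Cdk6, a kinase that acts with D-type cyclins, fell from 178 ± 22.0 to 50.1 ± 3.79 CPM in hepatocytes and changed by -0.35 ± 0.11 in myotubes. Rrm1 and Cdk2, named after their values were seen, each moved in opposite directions, Rrm1 by 0.44 ± 0.09 in hepatocytes and -0.54 ± 0.09 in myotubes, and Cdk2, with the reverse pattern, by -0.31 ± 0.08 and 0.39 ± 0.07. Beside these counts, the 8 proliferation markers summed to 44.0, 66.1 and 91.2 CPM in control myotubes, 28.9 to 35.5 CPM in the βOHB-treated and 22.3 to 28.6 CPM in the butyrate-treated ones, and to 9.96 to 16.1 and 22.4 to 24.3 CPM in control and butyrate-treated hepatocytes. The control myotubes also had the most macrophage transcripts, and the part of either shift in these counts was not tested.

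Of 24 cell cycle inhibitors and p53 targets, the difference was above 0 for 9 and below 0 for 6 (3 below without myotube butyrate replicate 3). Rb1, the retinoblastoma tumor suppressor, rose from 17.5 ± 0.527 to 55.4 ± 3.04 CPM in hepatocytes, with a myotube interval of -0.27 to 0.05. Sesn1, a sestrin induced by p53, rose by 2.02 ± 0.11 in hepatocytes, with a myotube interval of -0.05 to 0.32. Gadd45b rose by 1.42 ± 0.09 in hepatocytes and changed by -0.22 ± 0.09 in myotubes, where its fall did not keep the opposite call under 6 of 22 settings, DESeq2, RLE size factors and library totals among them. Cdkn1b, the inhibitor p27, and Gadd45a, a stress-induced inhibitor of growth, moved in opposite directions under all 22 settings and are named after their values were seen. Cdkn1b changed by -0.39 ± 0.08 in hepatocytes and 0.52 ± 0.08 in myotubes, and Gadd45a by 0.38 ± 0.10 and -0.77 ± 0.09.

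The circadian clock was affected in 15 of 18 counted genes, 10 with a difference above 0 and 5 below (3 below without hepatocyte control replicate 2 or without the filter on low counts). Bhlhe41, a transcriptional repressor of the clock, measured 3.26, 3.20 and 2.48 CPM in hepatocyte controls and 12.3, 15.2 and 9.79 CPM with butyrate, and 41.6, 44.4 and 46.7 CPM in myotube controls and 28.7, 29.3 and 22.4 CPM with butyrate (difference 2.79 ± 0.19, FDR = 4.15e-13). Ciart, another clock repressor, went from 1.94, 2.34 and 2.01 CPM to 4.77, 4.61 and 3.36 CPM in hepatocytes and from 1.60, 2.16 and 2.02 CPM to 0.244, 0.607 and 0.358 CPM in myotubes. Both genes thus rose in hepatocytes and fell in myotubes with no overlap of libraries. Per2, a core clock repressor, fell from 8.93 ± 0.757 to 2.33 ± 0.174 CPM in myotubes, with a hepatocyte interval of -0.44 to 0.07.

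Signaling genes differed in both directions. In the activin, TGF-β and BMP list 8 of 35 genes (22.9%) had a difference above 0 (5 without hepatocyte control replicate 1) and 9 (25.7%) below, about the shares over all genes. Fst, the activin antagonist follistatin, fell in both, from 463 ± 52.3 to 24.0 ± 5.58 CPM in myotubes and from 68.1 ± 4.94 to 16.9 ± 0.487 CPM in hepatocytes, a difference of 2.26 ± 0.18. Its relative Fstl3 rose from 3.42 ± 0.502 to 24.0 ± 2.05 CPM in hepatocytes, with a myotube interval of -0.07 to 0.35. Smad5, a signal transducer of BMP receptors, changed by -0.68 ± 0.06 in myotubes with a hepatocyte interval of -0.07 to 0.19. In the Wnt list 22 of 29 genes rose in hepatocytes and 16 in myotubes, with a difference above 0 for 12 and below 0 for 5 (3 without myotube control replicate 2 or without the filter on low counts). Dact3, an antagonist of Wnt signaling, measured 0.188, 0.123 and 0.0591 CPM in hepatocyte controls and 6.09, 5.80 and 7.02 CPM with butyrate, and rose by 1.97 ± 0.08 in myotubes. Axin2, a target and inhibitor of the pathway, measured 0.376, 0.123 and 0.177 CPM in hepatocyte controls and 3.28, 3.12 and 4.50 CPM with butyrate, with a myotube interval of -0.02 to 0.61. Tcf7l1, a repressor at Wnt targets, rose by 1.31 ± 0.09 in myotubes and 0.21 ± 0.09 in hepatocytes.

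Of 17 MAP kinase phosphatases and Sprouty proteins, which limit growth factor signaling, 14 differed, 5 above 0 and 9 below, and 4 moved in opposite directions. Dusp16 fell from 446, 498 and 502 CPM to 78.0, 75.3 and 75.8 CPM in hepatocytes and by a smaller amount in myotubes (-0.55 ± 0.06), a difference of -2.10 ± 0.09 (FDR = 7.62e-18). Dusp14 measured 4.39, 3.94 and 4.14 CPM in hepatocyte controls and 15.4, 15.4 and 15.6 CPM with butyrate, and 54.7, 62.3 and 63.2 CPM in myotube controls and 43.9, 47.3 and 45.8 CPM with butyrate, and thus moved in opposite directions (1.89 ± 0.12 and -0.40 ± 0.08). Spry1 did the same, with responses of 1.18 ± 0.18 and -0.77 ± 0.10. Of 31 genes of insulin, IGF and growth factor signaling, the difference was above 0 for 6 and below 0 for 10. Pdgfb, a growth factor for mesenchymal cells that endothelium also makes, fell from 13.3 ± 1.01 to 4.05 ± 0.788 CPM in hepatocytes and rose from 29.9 ± 1.24 to 41.1 ± 4.78 CPM in myotubes. Fgfr2 and Fgfr3, receptors for fibroblast growth factors, differed in opposite senses. Fgfr2 rose more in myotubes (2.42 ± 0.21) than in hepatocytes (0.61 ± 0.12), and Fgfr3 changed by 1.07 ± 0.10 in hepatocytes and -0.29 ± 0.11 in myotubes. The opposite call of Fgfr3 was lost under 6 of 22 settings, among them DESeq2, library totals and myotube butyrate replicate 3 left out.

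The early response genes of the AP-1, EGR and MYC families rose more often than they fell in both cells (11 and 6 of 21 in hepatocytes, 13 and 5 in myotubes), and the difference was above 0 for 5 and below 0 for 9. Nr4a3, an early-induced orphan nuclear receptor, measured 0.125, 0.0615 and 0.118 CPM in hepatocyte controls and 6.84, 7.28 and 7.87 CPM with butyrate, and rose by 0.97 ± 0.15 in myotubes. Atf3, a stress-induced factor, rose in both, by 2.46 ± 0.10 in hepatocytes and 1.07 ± 0.11 in myotubes. Ier2, an immediate early gene, changed by -1.06 ± 0.09 and 0.27 ± 0.10, and lost its opposite call under 4 of 22 settings, which were myotube butyrate replicate 1 or 3 or myotube control replicate 3 left out and no filter on low counts. Among 31 genes of NF-κB and inflammatory signaling, 15 had a difference below 0 and 6 above, with a median of -0.48. Beside Ikbkg, its partner kinase Ikbkb fell by -0.72 ± 0.05 in hepatocytes with a myotube interval of -0.14 to 0.06. Il1r1, the interleukin-1 receptor, rose more in myotubes, from 6.03 ± 0.537 to 22.9 ± 1.07 CPM, than in hepatocytes, from 47.8 ± 0.900 to 70.2 ± 3.49 CPM.

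**Figure D5:**
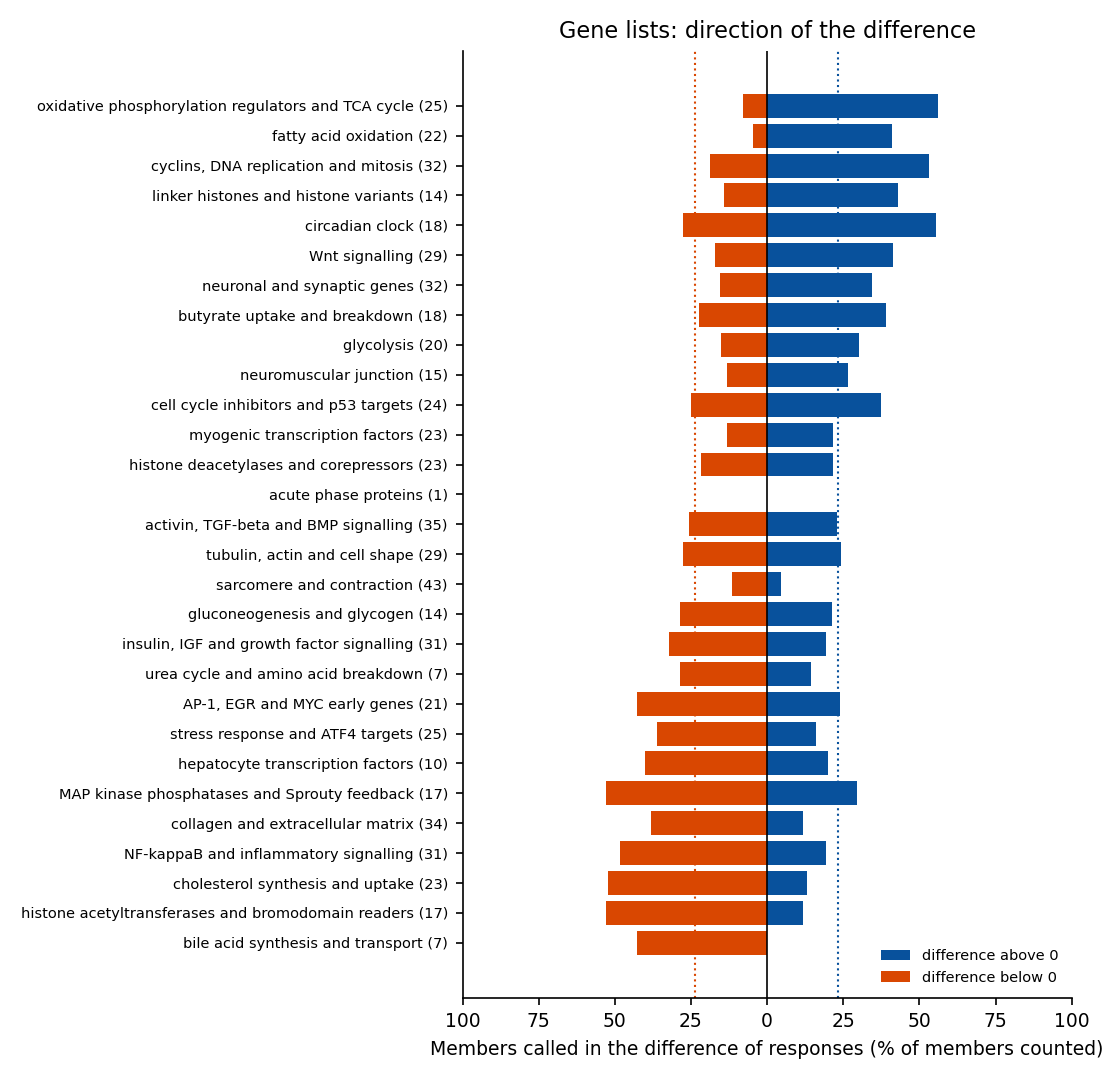
Percentage of the counted members of each gene list whose difference of responses passed the test above 0 (blue) or below 0 (orange). Dotted lines give the same percentages over all 14801 genes not set aside. The cyclin, TCA cycle and circadian lists lean above 0, and the cholesterol, acetyltransferase and NF-κB lists lean below 0.

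Of 34 collagen and matrix genes, 13 had a difference below 0 and 4 above, and 13 fell in hepatocytes compared with 6 in myotubes, but the former count was 7 without myotube butyrate replicate 3. Ccn2, a matricellular target of TGF-β and YAP, fell from 340, 323 and 367 CPM to 182, 191 and 192 CPM in hepatocytes and rose from 410, 317 and 337 CPM to 555, 513 and 829 CPM in myotubes. The difference of -1.70 ± 0.18 (FDR = 7.03e-09) was -1.46 without that replicate. Loxl2, which cross-links collagen, had the same directions (-0.74 ± 0.12 and 0.46 ± 0.12), and Mmp14, a membrane-bound collagenase, fell in both (-2.57 ± 0.15 and -0.94 ± 0.13). The fibroblast and stellate cell markers summed to 47.3 to 52.6 CPM in control and 39.2 to 45.0 CPM in butyrate-treated hepatocytes, where 6 of 11 fell, compared with 5683 to 5979 and 5212 to 5304 CPM in myotubes, and their part in the matrix list was not tested.

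Of 32 neuronal and synaptic genes, 15 rose and 2 fell in hepatocytes and 25 rose and 5 fell in myotubes, with a difference above 0 for 11 and below 0 for 5. Rab3a, a GTPase of synaptic vesicles, rose from 1.52 ± 0.166 to 21.5 ± 1.55 CPM in hepatocytes and from 29.9 ± 2.46 to 60.5 ± 3.14 CPM in myotubes. Syt11, a synaptotagmin, rose by 1.72 ± 0.10 in hepatocytes and changed by -0.19 ± 0.07 in myotubes, and its opposite call was lost under 5 of 22 settings, DESeq2 and library totals among them. Bdnf, a neurotrophin that muscle also makes, measured 0.502, 0.492 and 0.828 CPM in hepatocyte controls and 2.86, 3.02 and 1.92 CPM with butyrate, and 49.6, 45.3 and 44.2 CPM in myotube controls and 20.8, 19.1 and 34.8 CPM with butyrate, and moved in opposite directions under all 22 settings. Of 29 genes of tubulin, actin and cell shape, 7 had a difference above 0 (24.1%) and 8 below (27.6%), again close to the shares over all genes. Tubb4b, a β-tubulin, fell from 803 ± 23.5 to 329 ± 14.4 CPM in hepatocytes and by a smaller amount in myotubes (-0.22 ± 0.06). Vim, the intermediate filament vimentin, fell by -1.10 ± 0.11 in hepatocytes with a myotube interval of -0.12 to 0.31, and Cdh2, N-cadherin, fell more in myotubes (-0.70 ± 0.06) than in hepatocytes (-0.19 ± 0.07).

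Of 25 stress response genes and ATF4 targets, the difference was below 0 for 9 (5 without myotube butyrate replicate 3) and above 0 for 4. Slc3a2, the heavy chain of amino acid exchangers, fell from 281, 262 and 272 CPM to 84.9, 90.2 and 84.2 CPM in hepatocytes, compared with 97.7 ± 0.475 and 88.1 ± 4.59 CPM in control and butyrate-treated myotubes (FDR of the difference = 3.54e-13). Atf5, a transcription factor of the mitochondrial stress response, changed by -1.84 ± 0.09 and -0.45 ± 0.08, and Xbp1, a transcription factor of the unfolded protein response, by -1.65 ± 0.06 and -0.75 ± 0.06. Chac1, a glutathione-degrading target of ATF4 named after its values were seen, moved in opposite directions (0.82 ± 0.09 and -0.43 ± 0.10). Finally, the endothelial genes Kdr, the main receptor for VEGF, and Erg, an endothelial transcription factor, fell in hepatocytes and rose in myotubes. Kdr went from 16.0, 15.2 and 14.5 CPM to 5.51, 5.45 and 4.50 CPM in hepatocytes and from 1.47, 1.14 and 0.660 CPM to 6.22, 5.95 and 9.53 CPM in myotubes, and Erg stood at no more than 0.692 CPM in any myotube library. Of the 10 endothelial markers, 2 rose and 2 fell in myotubes with a median response of 0.11. Cldn5, a tight junction protein outside that list that was named after its values were seen, changed by -2.07 ± 0.29 in hepatocytes and 2.85 ± 0.49 in myotubes. Of the 55 genes with large changes in these directions, 32 had means below 1 CPM in both control and butyrate-treated myotubes, Erg and Cldn5 among them. Kdr and Erg are themselves among the 10 endothelial markers, so their fall in hepatocytes is part of the lower sum of these markers there. Cldn5 fell in hepatocytes as well, and the part of endothelial cells in either direction was not tested.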

How the data were processed

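Gene-level estimated counts were deposited by the authors, who ran Salmon 1.2.1 on GENCODE M25 transcripts and imported the estimates with tximport. Here they were rounded to whole numbers. Genes with more than 1 CPM in at least 6 of the 36 libraries were kept (15340), scaled by TMM and fitted with edgeR 4.0.16 (quasi-likelihood F test, 12 group means, all 36 libraries, Benjamini-Hochberg FDR below 0.05) in R 4.3.3. A total of 54094 of 54347 genes had a symbol, and coordinates are those of GENCODE M21 (GRCm38). The self-test on simulated counts ran before the fit. Alternatives were limma-voom (limma 3.58.1), DESeq2 1.42.0, other filters and scalings, a replicate block, omission of each library, other limits for the set-aside, and subtraction of the carried hepatocyte share. Genes, lists and rules were chosen with earlier results of these data known. The one-sided and opposite genes named are those with the smallest P of the difference among protein-coding genes with a highest group mean of at least 10 CPM in each cell type (3 and 4 of up to 6 qualified for the opposite directions, and 4 were taken per one-sided class). Each list gives its 3 called members with the smallest P. One named member of a list is not reported here. List counts carry no set test. Totals of 18366289 to 22896158 estimated counts per library limit the precision of genes below about 1 CPM.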

Additional observations from a re-analysis of the deposited data

Results flagged for a closer look

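The test of the difference of responses itself flagged 6964 genes, among them 46 with changes of at least 1 on the log2 scale up in hepatocytes and down in myotubes, and 55 with the reverse. Its value on the log2 scale was 7.55 for Synpo2, 2.87 for Lmo7 and 5.80 for Car3, which rose in hepatocytes and fell in myotubes. It was -2.67 for C77080, -3.46 for Sema6b, -2.73 for Gprc5a and -2.45 for Tinagl1, which did the reverse. For genes raised in hepatocytes alone it was 3.47 for St6galnac4, 3.62 for Atp8b2, 1.64 for Rasa3 and 3.54 for Mfap3l, and for genes lowered there alone -2.57 for Ikbkg, -1.39 for Mgea5, -1.09 for Slc39a1 and -1.66 for Plp2. For genes raised in myotubes alone it was -1.56 for Dynll2, -1.501 for Nedd9, -1.07 for Galnt10 and -1.69 for Fgd6, and for genes lowered there alone 1.87 for Ppfibp2, 1.44 for Baiap2l1, 1.32 for Dapk2 and 1.04 for Slc6a6.

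A signal also appeared in a library outside the comparison. In myotubes treated with βOHB, replicate 3 held hepatocyte transcripts at a median of 0.0765% of the hepatocyte level, above the control myotubes (0.000936 to 0.00383%) and the other βOHB replicates (0.00525 and 0.00478%).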

How the results depend on the processing

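No named difference reversed under any setting, and most counts of the main classes stayed within 1.5 times the reported value. Genes lowered in myotubes alone numbered 42 without the filter on low counts and 69 with 1.5-fold as a response and 0.3 as the narrow interval. With hepatocyte transcripts kept, 102 genes had large changes down in hepatocytes and up in myotubes, and 161 rose in myotubes alone, compared with 45 when transcripts were set aside at 4 times the myotube level. With P below 0.001 in place of the FDR, 4570 genes differed (2298 above and 2272 below 0), 459 were opposite (220 and 239), and 23 and 31 had large opposite changes. The carried share of myotube butyrate replicate 1 was 0.241% as a ratio of summed CPM, by which control myotubes stood at most at 0.102%. The cause was not tested for any of these, beyond the threshold that each changes. Leaving out each library gave 6493 to 6818 genes that differed (3223 to 3435 above and 3270 to 3402 below 0), 952 to 1070 opposite (467 to 531 and 481 to 549), 38 to 49 and 47 to 68 with large opposite changes, and 202 to 240, 123 to 151, 74 to 93 and 17 to 33 one-sided genes. Setting macrophage transcripts aside too, chosen after seeing the data, gave 1059 opposite genes, 37 and 53 of them with large changes. Of the single genes chosen by rule, Ass1 lost its call without myotube butyrate replicate 3 (-0.27) and with only the 12 libraries (-0.60), and Tpm3 without the filter (-0.21) and with only the 12 libraries (-0.27). In repeats of the list counts, 902 stayed within 1.5 times and 26 did not. Same-numbered libraries did not deviate together (r = 0.000, 0.009 and 0.013 in hepatocytes, and -0.216, 0.110 and -0.110 in myotubes), and a replicate block gave 6839 genes that differed (3410 and 3429), 1065 opposite (526 and 539), 48 and 58 with large changes, and 224, 139, 89 and 22 one-sided, so it moved no count by 1.5 times. Genes under about 1 CPM are limited by depth.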
